A study of Canis lupus familiaris with 6 samples.

Results

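Mutant clone 1 was compared with mutant clone 2, a pair of MDCK lines that carry the same genotype label. MDCK is an established epithelial cell line from dog kidney. Both clones are labelled PRL2-/-; PRL1+/-, and each gave 1 library after control siRNA and 1 after PRL1 siRNA. These 4 of the 6 libraries were chosen by clone number and siRNA label and were compared within each siRNA. The other 2 libraries came from wild-type MDCK cells given the same siRNAs and serve only as a reference level. RNA from every group was extracted 18 h after the second transfection. Of 41401 gene symbols, the comparison covers 12105, those whose FPKM averaged 1 or more across the clone libraries (FPKM, fragments scaled by transcript length and library size). Each group is a single clone, and neither the way the alleles were altered nor whether the libraries of a clone came from separate cultures is given in the labels. With 1 library per clone and siRNA, p-values measure only the spread between these libraries, which may be technical, and a difference between clones cannot be told apart from a difference between their cultures or library preparations.

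The phosphatases of the PRL family sit at cell membranes, where they bind CNNM proteins and restrain the export of magnesium. PTP4A1 is the gene for PRL1 and PTP4A2 the gene for PRL2. A clonal line grows out of a single cell, so it carries forward the expression state and any chance mutation of that founder together with the intended edit. MDCK cultures are known to be heterogeneous, and sublines of MDCK differ in tight junctions, ion transport and tubular character.

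All 11 kidney epithelial markers on the list, among them the cadherin gene CDH1 and the keratin gene KRT18, were at 1 FPKM or more in all 4 clone libraries. Of 15 leukocyte markers, 9 stayed below 0.1 FPKM in all 4, and the summed level of the 15 was 8.41 to 10.2 FPKM. The 11 fibroblast markers summed to 0.422 and 1.96 FPKM in clone 1 and 1.93 and 4.41 in clone 2, with ACTA2 the highest of them. The 11 endothelial markers summed to 16.4 and 17 FPKM in clone 1 and 25.1 and 24.6 in clone 2, most of it FLT1. Relative depth, read from low values against the control library of clone 2, was 0.931 and 0.838 for clone 1 with control and PRL1 siRNA and 0.947 for clone 2 with PRL1 siRNA. The absolute depth is unknown.

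The clones differed in many genes, most of them by little. With the siRNA as block, limma called 2237 of 12105 genes, or 18.5%, at an adjusted p under 0.05. Of these, 1224 (10.1%) were higher in clone 1 and 1013 (8.37%) were higher in clone 2. The difference was under 0.5 on the log2(FPKM + 1) scale in 1580 of the called genes, and the median size was 0.34 over the called genes and 0.11 over all genes tested. Large differences leaned to clone 2. Under both siRNAs, 52 genes (0.43%) were at least 2-fold higher in clone 1 and 100 genes (0.826%) in clone 2. Of these 152, 150 were among the called. In 13 of the 52, clone 2 was below 1 FPKM in both libraries, and in 35 of the 100, clone 1 was. Such genes passed the filter only through the clone where they were high, so the lean rests in part on them. For comparison of scale, the siRNA moved 34 genes up and 23 genes down by at least 2-fold in both clones, and its median absolute effect was 0.14. In the text, a difference is clone 1 minus clone 2 on the log2(FPKM + 1) scale with its limma standard error (SE, n = 2 libraries per clone), and pairs of FPKM values are given for control and then PRL1 siRNA.

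The number of calls rests on the siRNA block. Without it, 42 genes passed, 12 higher in clone 1 and 30 higher in clone 2, all 42 of them among the 2237, and no gene list had more than 1 member left. Scaling the libraries by size factors turned the balance of calls from 54.7% higher in clone 1 to 44.6% (936 against 1161), while the median over all genes moved only from 0.03 to 0.0022.

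**Figure D1:**
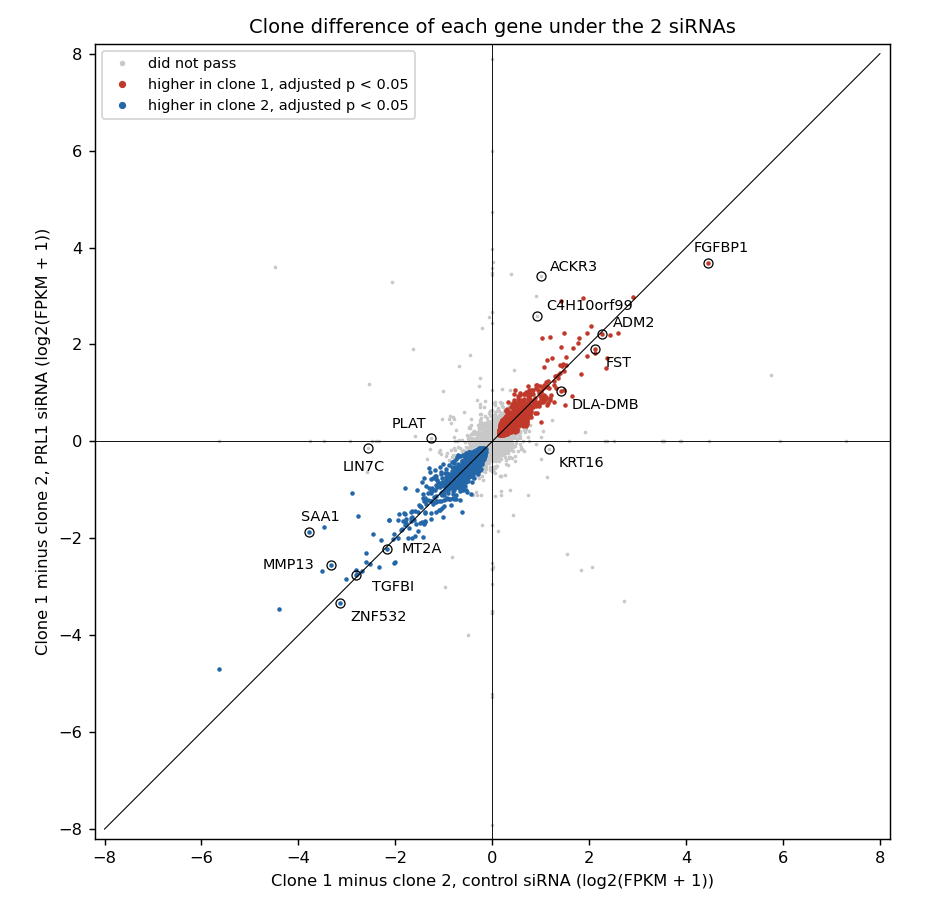
Each point is 1 of the 12105 genes, with clone 1 minus clone 2 under control siRNA on the horizontal axis and under PRL1 siRNA on the vertical axis, both in log2(FPKM + 1); red and blue points passed (1224 higher in clone 1, 1013 higher in clone 2) and the diagonal marks equal differences. FGFBP1 lies near the upper end of the diagonal with 4.46 and 3.68, whereas LIN7C, with -2.56 and -0.13, lies far from it.

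The transcripts named in the genotype were examined first. PTP4A1, the siRNA target, read 61.7 and 37.8 FPKM in clone 1, 69.9 and 37.8 in clone 2, and 63.5 and 33.1 in wild type. It was lower with PRL1 siRNA in every line, and the clones overlapped, with a difference of -0.09 ± 0.05 (limma adjusted p = 0.3). PTP4A2, which encodes PRL2, read 80.4 and 69.1 FPKM in clone 1, 56.7 and 48.3 in clone 2, and 72.7 and 59 in wild type. Its transcript was present in both clones, higher in clone 1 in both libraries, with wild type between them. The difference was 0.50 ± 0.03 (limma adjusted p = 0.0048; 0.323 without the block). PTP4A3, the third family member, stayed at 0.175 to 0.49 FPKM in the 4 clone libraries and was not tested.

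Among the CNNM transporters, CNNM4 was higher in clone 1. It read 11.8 and 11.4 FPKM there against 9.08 and 8.91 in clone 2, without overlap (0.34 ± 0.04, limma adjusted p = 0.0166), and 12 and 14 in wild type. CNNM3 had a difference of 0.22 ± 0.05 that did not pass (limma adjusted p = 0.0508), CNNM2 one of -0.21 ± 0.11 and ARL15, a small GTPase that modifies CNNM function, one of 0.03 ± 0.06, and neither of the last 2 passed. CNNM1 was at or near 0 throughout. In all, 2 of 6 tested members of the PRL and CNNM list passed, both higher in clone 1 (33.3%, against 10.1% of all genes).

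Of 15 other magnesium channels and transporters tested, 1 passed as higher in clone 1 and 4 as higher in clone 2. These shares were 6.67% and 26.7%, against 10.1% and 8.37% of all genes. The one higher in clone 1 was CLDN16, the claudin of the paracellular magnesium and calcium pathway of the thick ascending limb. It read 62.9 and 70.9 FPKM in clone 1, 33.2 and 30.9 in clone 2 and 62.4 and 69.4 in wild type. Clone 1 was thus at the wild-type level and clone 2 below both, with a difference of 1.04 ± 0.07 (limma adjusted p = 0.00551). The 4 that were higher in clone 2 were the SLC41 family transporters SLC41A1 (-0.38 ± 0.06) and SLC41A3 (-0.66 ± 0.13) and the NIPA-like genes NIPAL1 (-0.20 ± 0.04) and NIPAL2 (-0.33 ± 0.04). TRPM6 and TRPM7, the magnesium channel kinases, differed by 0.19 ± 0.09 and 0.04 ± 0.05 and did not pass.

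The largest difference toward clone 1 was in FGFBP1, a secreted carrier that releases fibroblast growth factors from the matrix. It read 160 and 135 FPKM in clone 1, 6.32 and 9.62 in clone 2, and 211 and 191 in wild type. Clone 2 stood alone at the low level, by 4.07 ± 0.19 (limma adjusted p = 0.00258). FST, which encodes the activin antagonist follistatin, read 312 and 303 FPKM in clone 1, 70.9 and 80.6 in clone 2, and 367 and 440 in wild type. Here too clone 2 was the low line (2.01 ± 0.06, limma adjusted p = 0.00145).

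The 15 genes named for the largest differences toward clone 1 ranged from 1.32 to 4.07, with limma adjusted p from 0.0012 to 0.00668. Wild type was nearer to clone 1 in 12 of the 15. Among them, MIOX, the proximal tubule enzyme that opens the inositol ring, read 8.95 and 8.42 FPKM in clone 1 and 1.42 and 0.813 in clone 2. ADM2, a peptide hormone of the adrenomedullin family and the gene next to MIOX in the reference order, read 11.3 and 11.4 FPKM against 1.57 and 1.67. FXYD2, the gamma subunit of the sodium pump, read 63.4 and 89.5 FPKM against 21.4 and 26. All 3 genes were without overlap between clones and closer to wild type in clone 1 than in clone 2. SERPINE2, an inhibitor of thrombin and plasminogen activators, read 153 and 149 FPKM against 42.1 and 56.4. CD24, a surface glycoprotein of epithelial progenitors, read 39.9 and 25.7 FPKM against 14.2 and 8.04. In both genes clone 2 was again the low line, with wild type at 187 and 162 FPKM for SERPINE2 and 47.7 and 43.4 for CD24. DDT, which encodes D-dopachrome tautomerase, a relative of the cytokine MIF, went the other way from wild type: it read 603 and 681 FPKM in clone 1 against 217 and 226 in clone 2 and 266 and 312 in wild type. The others were LORICRIN (2.05 ± 0.17), the haematopoietic transcription cofactor gene LMO2 (1.89 ± 0.08), the cholesterol sulfotransferase gene SULT2B1 (1.86 ± 0.06), PEG10 (1.80 ± 0.08), the matrix proteoglycan gene PODN (1.48 ± 0.06), STAP2 (1.48 ± 0.05) and B3GNT7 (1.32 ± 0.06).

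The 15 genes named for the largest differences toward clone 2 ranged from -3.24 to -1.88. TGFBI, a matrix protein induced by TGF-beta, read 7.31 and 9.89 FPKM in clone 1, 57.5 and 72.8 in clone 2, and 3.69 and 4.85 in wild type. FSTL1, a secreted glycoprotein of the follistatin family, read 4.9 and 5.39 FPKM in clone 1, 46.7 and 44.8 in clone 2, and 5.92 and 5.72 in wild type. In both genes clone 2 was above the other lines, and the difference between the clones was -2.79 ± 0.04 for TGFBI and -2.93 ± 0.06 for FSTL1 (limma adjusted p = 0.000462 and 0.000597). Against wild type, TGFBI was higher by 0.86 in clone 1 and by 3.65 in clone 2, whereas FSTL1 differed by -0.15 in clone 1 and 2.78 in clone 2. TRPA1, a calcium-permeable irritant channel, read 65.4 and 76 FPKM in clone 1, 326 and 315 in clone 2 and 58.6 and 75.7 in wild type. UPK1B, a uroplakin of urothelial membranes, read 12.3 and 17.2 FPKM in clone 1 and 84.3 and 114 in clone 2. Wild type lay between the clones for UPK1B at 32.8 and 47.9 FPKM.

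In some of these genes clone 1 was the line that stood apart. ABRACL, a small regulator of actin dynamics, read 2.29 and 2.71 FPKM in clone 1 against 18 and 20.6 in clone 2 and 17.5 and 22.3 in wild type. IRX1, a homeobox gene of the nephron segments, read 0.0841 and 0.0643 FPKM in clone 1 against 6.68 and 5.71 in clone 2 and 10.5 and 10 in wild type. Both were called, by -2.53 ± 0.05 and -2.74 ± 0.09 (limma adjusted p = 0.000597 and 0.00152), and IRX1 passed the filter only through clone 2. For ZNF532, a zinc finger gene with the largest difference toward clone 2 among genes with a name (-3.24 ± 0.08), the 3 lines were all at different levels: 0.189 and 0.189 FPKM in clone 1, 9.55 and 10.9 in clone 2 and 1.22 and 1.53 in wild type. MMP13, collagenase 3, was the gene of this group most affected by the siRNA: it read 1.98 and 68.7 FPKM in clone 1, 28.8 and 410 in clone 2 and 0.492 and 9.05 in wild type. Within each siRNA clone 2 was higher, but across siRNAs the clones overlapped, and the call for MMP13 was lost without the block (limma adjusted p = 0.00442, and 0.747 without the block). The remaining members were SAA1 (-2.83 ± 0.46), DZIP1 (-2.54 ± 0.08), MT2A (-2.19 ± 0.03), PI3 (-2.15 ± 0.30), SCARA3 (-2.04 ± 0.04), TMEM86A (-1.97 ± 0.05) and DEPDC7 (-1.88 ± 0.14). Wild type was nearer to clone 1 in 10 of these 15. Of all 30 genes named by size, 16 passed without the siRNA block and 30 passed in a fit to all 6 libraries. These genes were picked as the largest called differences, and both fits reuse the same clone libraries, so the counts are no independent support.

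**Figure D2:**
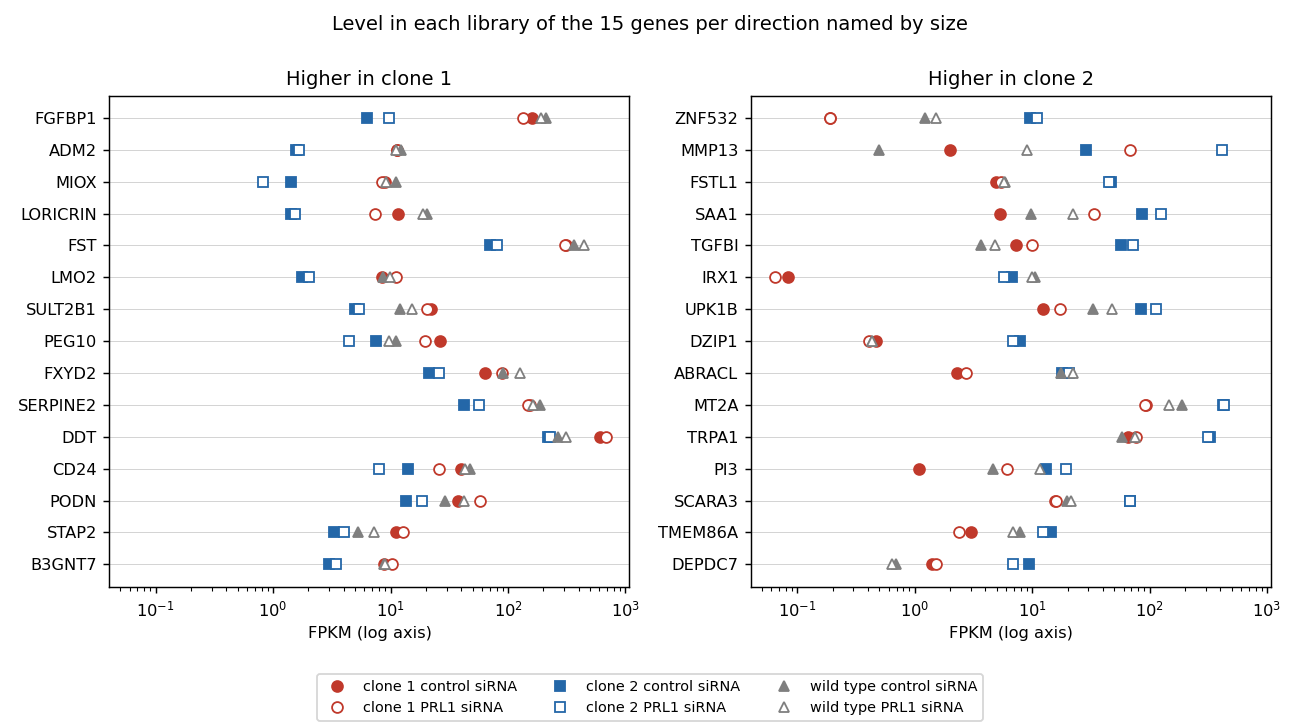
FPKM on a log axis in each of the 6 libraries for the 15 genes with the largest called differences in each direction; circles are clone 1, squares clone 2 and triangles wild type, filled for control siRNA and open for PRL1 siRNA. On the left the squares of clone 2 lie apart from the other lines for FGFBP1 (6.32 and 9.62) and FST (70.9 and 80.6), and on the right the circles of clone 1 lie apart for IRX1 (0.0841 and 0.0643).

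Some genes were listed near 0 in 1 clone, below 0.1 FPKM in both of its libraries and at 1 FPKM or more in both libraries of the other. There were 15 such symbols for clone 1, 8 of them named genes, and 10 for clone 2, of which 2 were named genes. Beside IRX1, DDX60, an interferon-induced helicase, read 0.0485 and 0.042 FPKM in clone 1 and 2.49 and 3.18 in clone 2, with 0.0641 and 0.0469 in wild type. OSBPL10, an oxysterol-binding protein gene, read 0.0247 and 0.0478 FPKM against 2.57 and 2.47, with 0.148 and 0.167 in wild type. For these 2 genes clone 2 was the line apart. USH1C, which encodes the brush-border scaffold harmonin, read 0.0126 and 0.0197 FPKM in clone 1, 1.92 and 2.66 in clone 2 and 0.772 and 1.19 in wild type. STAT4, a transcription factor of cytokine signalling, read 0.00911 and 0.0101 FPKM in clone 1 and 1.59 and 1.28 in clone 2. Wild type read 0.176 and 0.187 FPKM for STAT4, also well below clone 2. The others at this low level in clone 1 were the organic cation transporter gene SLC22A2, EDARADD and SH2D4A.

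In clone 2, CCDC172 was listed at 0 in both libraries, against 4.44 and 3.56 FPKM in clone 1 and 1.04 and 1.12 in wild type. ACKR3, a scavenger receptor for the chemokine CXCL12, read 0.00999 and 0.0105 FPKM in clone 2, 1.04 and 9.74 in clone 1 and 8.4 and 23.1 in wild type. ACKR3 was higher with PRL1 siRNA in clone 1 and in wild type, whereas it stayed near 0 in clone 2. Its mean difference of 2.21 ± 0.58 did not pass (limma adjusted p = 0.0691).

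Immune genes differed between the clones in opposite directions by group. MHC class II genes, which present peptides from endocytosed protein, were higher in clone 1: 8 of 9 tested passed in that direction (88.9%, against 10.1% of all genes) and the list's median was 0.95, against 0.03 over all genes. DLA-DRA, the class II alpha chain, read 348 and 620 FPKM in clone 1, 168 and 337 in clone 2 and 172 and 281 in wild type. DLA-DMB, the beta chain of the peptide editor, read 36.9 and 68.8 FPKM in clone 1, 13.2 and 33 in clone 2 and 7.75 and 14.2 in wild type. Both were higher in clone 1 within each siRNA, did not overlap across siRNAs.

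The differences were 0.96 ± 0.05 for DLA-DRA and 1.23 ± 0.10 for DLA-DMB (limma adjusted p = 0.00319 and 0.00635). DLA-DQA1 (1.02 ± 0.09), DLA-DQB1 (1.20 ± 0.05) and HLA-DRB1 (0.95 ± 0.07) were of like size. CIITA, the class II transactivator, read 2.9 and 7.5 FPKM in clone 1 and 2.14 and 4.35 in clone 2, which overlapped across siRNAs (0.49 ± 0.11, limma adjusted p = 0.0459). The member that did not pass was the protease gene CTSS, with -0.37 ± 0.10. None of the 8 calls held without the siRNA block. The median siRNA effect on the list was 0.92 in clone 1 and 1.16 in clone 2. Class II genes are close paralogs that can share fragments, so their separate values are uncertain.

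Interferon-stimulated genes were higher in clone 2: 21 of 32 tested passed in that direction (65.6%, against 8.37% of all genes), 0 passed in the other, and the median was -0.29. OAS2, an antiviral oligoadenylate synthetase, read 60.6 and 47.6 FPKM in clone 1, 113 and 110 in clone 2 and 70.5 and 47.4 in wild type. ISG15, a ubiquitin-like modifier, read 56 and 45.1 FPKM in clone 1, 84.9 and 84.5 in clone 2 and 84.5 and 51.7 in wild type. Neither gene overlapped between the clones, with differences of -1.04 ± 0.08 and -0.74 ± 0.08 (limma adjusted p = 0.006 and 0.0108). USP18, which removes ISG15, followed with -0.59 ± 0.05, MX2 with -0.67 ± 0.12 and the guanylate-binding protein gene GBP1 with -0.80 ± 0.15. The median clone difference was -0.29 under control siRNA and -0.32 under PRL1 siRNA. In the fit to all 6 libraries, 9 of the 32 passed, all higher in clone 2, and GBP1 was not among them (limma adjusted p = 0.0633).

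Cytokine and chemokine genes were also higher in clone 2, with 9 of 17 tested passing in that direction (52.9%, against 8.37% of all genes) and 0 in the other. The list's median was -0.70, with -0.72 under control siRNA and -0.44 under PRL1 siRNA. CXCL8, the neutrophil chemokine interleukin 8, read 0.234 and 0.552 FPKM in clone 1, 3.56 and 4.49 in clone 2 and 0.207 and 0.33 in wild type. LIF, a cytokine of the interleukin 6 family, read 4.61 and 3.63 FPKM in clone 1 and 8.46 and 7.92 in clone 2. Both separated the clones without overlap, by -1.85 ± 0.09 and -0.85 ± 0.07 (limma adjusted p = 0.00274 and 0.00671). CXCL8 passed the expression filter only through its level in clone 2. CCL5 was mainly a PRL1 siRNA transcript in the clones, with 0.0445 and 11.1 FPKM in clone 1 and 0.643 and 22.1 in clone 2. Wild type read 0.0713 and 0.467, an siRNA effect of 0.45 against 3.54 in clone 1 and 3.82 in clone 2. The CCL5 call (-0.79 ± 0.09, limma adjusted p = 0.0128) was lost in the fit to 6 libraries (limma adjusted p = 0.536). That fit assumes the same siRNA effect in every line. Among 27 NF-kB targets and feedback inhibitors, 9 passed as higher in clone 2 (33.3%, against 8.37%) and 1 as higher in clone 1 (3.7%, against 10.1%). The median was -0.12, and 13 of the 27 had a positive and 14 a negative difference. CD40, a TNF receptor family member, read 0.0175 and 0.366 FPKM in clone 1, 3.17 and 6.77 in clone 2 and 3.05 and 4.85 in wild type. For CD40, clone 1 was therefore the line apart, by -2.27 ± 0.14 (limma adjusted p = 0.00443), and the gene passed the filter only through clone 2. SAA1, an acute-phase apolipoprotein, read 5.36 and 33.9 FPKM in clone 1, 86.7 and 126 in clone 2 and 9.83 and 22.1 in wild type, and serum amyloid genes are close copies whose separate values are uncertain. Of 16 MHC class I and peptide loading genes, 6 passed as higher in clone 2 (37.5%, against 8.37%) and 1 as higher in clone 1 (6.25%, against 10.1%). The median was -0.12. B2M, the light chain of class I, read 750 and 1050 FPKM in clone 1 and 949 and 1344 in clone 2. It overlapped across siRNAs, and its call (-0.35 ± 0.03) was lost in the fit to 6 libraries (limma adjusted p = 0.0697). The siRNA effect on B2M was 0.48 in clone 1, 0.50 in clone 2 and 0.13 in wild type.

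**Figure D3:**
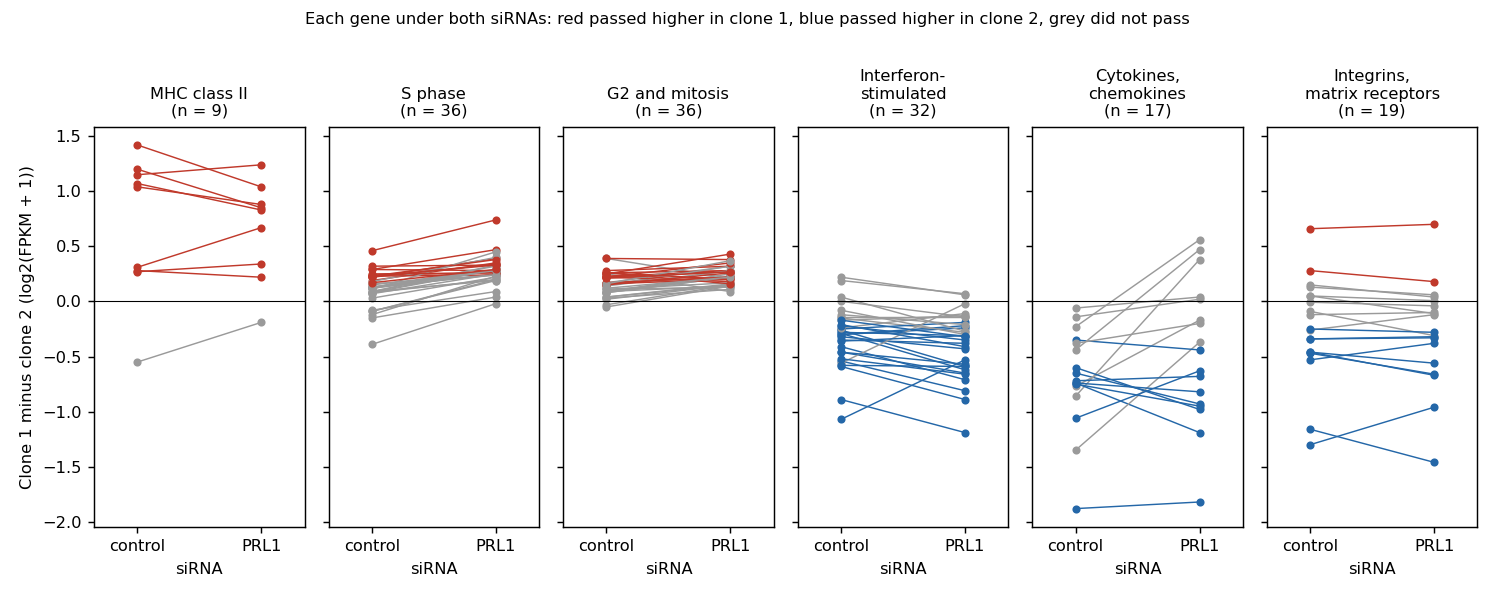
Each line is 1 gene, with clone 1 minus clone 2 in log2(FPKM + 1) under control siRNA on the left and PRL1 siRNA on the right of each panel; red passed as higher in clone 1, blue as higher in clone 2, and grey did not pass. In MHC class II 8 of 9 lines are red and above 0, in the interferon list 21 of 32 are blue and below 0, and in the cell cycle lists most lines lie above 0 (34 of 36 S phase genes and 36 of 36 G2 and mitosis genes in the mean of both siRNAs).

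Cell cycle genes were slightly higher in clone 1. Over all genes, 10.1% passed as higher in clone 1 and 8.37% as higher in clone 2, and the median was 0.03. Among S phase and DNA replication genes, 13 of 36 passed as higher in clone 1 (36.1%) and 0 as higher in clone 2, with a median of 0.21. Among G2 and mitosis genes, 16 of 36 passed as higher in clone 1 (44.4%) and 0 as higher in clone 2, with a median of 0.20, and all 36 had a positive difference. E2F2, an activator of S phase genes, read 3.92 and 4.47 FPKM in clone 1 and 2.57 and 2.28 in clone 2 (0.60 ± 0.09, limma adjusted p = 0.0235). MCM5, a subunit of the replicative helicase, read 64.7 and 59.2 FPKM in clone 1 and 52.6 and 42.5 in clone 2. For both genes the clones did not overlap. ANLN, an actin-binding protein of the cleavage furrow, read 109 and 77.5 FPKM in clone 1 and 82.8 and 59.1 in clone 2. ANLN overlapped across siRNAs but was higher in clone 1 within each (0.39 ± 0.03, limma adjusted p = 0.00711). In bulk samples more cycling cells and more RNA of these genes per cell cannot be told apart.

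CDKN1A, the cell cycle inhibitor p21, went the other way. It read 48.1 and 71.9 FPKM in clone 1, 113 and 123 in clone 2 and 35.9 and 50 in wild type, so that clone 2 was above the other lines (-0.99 ± 0.11, limma adjusted p = 0.0124). Of 25 CDK inhibitor and p53 target genes, 7 passed as higher in clone 2 (28%, against 8.37% of all genes). Among them were PMAIP1 (-0.92 ± 0.19), PLK3 (-0.54 ± 0.09) and CCNG1 (-0.49 ± 0.05). PMAIP1 did not pass in the fit to 6 libraries (limma adjusted p = 0.157). In the other direction 3 passed (12%, against 10.1%), among them GADD45A (0.53 ± 0.09). BCL2, the apoptosis inhibitor, was higher in clone 1 by 0.50 ± 0.06 with 8.58 and 4.2 FPKM against 5.76 and 2.69. Of 28 BCL2 family and death receptor genes it was the 1 member that passed in that direction (3.57%, against 10.1% of all genes), and 3 passed as higher in clone 2 (10.7%, against 8.37%).

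Matrix, adhesion and mesenchymal genes differed in both directions, with more calls toward clone 2. Of 21 osteopontin, galectin and related genes, 10 passed as higher in clone 2 (47.6%, against 8.37% of all genes) and 0 as higher in clone 1. The median was -0.21. SPP1, which encodes osteopontin, read 5001 and 6263 FPKM in clone 1, 10361 and 10069 in clone 2 and 2149 and 2682 in wild type. CLU, the secreted chaperone clusterin, read 2288 and 3063 FPKM in clone 1, 7999 and 8666 in clone 2 and 2045 and 2560 in wild type. Both separated the clones (-0.87 ± 0.10 and -1.65 ± 0.08, limma adjusted p = 0.0116 and 0.00277), and the level of CLU in clone 1 was near that of wild type. LGALS1, galectin 1, read 46.7 and 48.2 FPKM in clone 1 and 114 and 114 in clone 2, and passed with and without the block (-1.24 ± 0.03, limma adjusted p = 0.0012 and 0.0284).

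Of 19 integrins and matrix receptors, 9 passed as higher in clone 2 (47.4%, against 8.37% of all genes) and 2 as higher in clone 1 (10.5%, against 10.1%). The median was -0.20. ITGA5, the alpha chain of the fibronectin receptor, read 1.68 and 1.39 FPKM in clone 1, 4.99 and 5.58 in clone 2 and 4.47 and 5.28 in wild type (-1.31 ± 0.10, limma adjusted p = 0.00605). ITGA1, the alpha chain of a collagen receptor, differed by -1.13 ± 0.12, ITGB6 by -0.56 ± 0.06 and the syndecan gene SDC1 by -0.56 ± 0.06. The collagen receptor kinase gene DDR2 was higher in clone 1 (0.68 ± 0.05). Collagens, laminins and basement membrane genes were split, with 5 of 20 passing toward clone 1 (25%, against 10.1%) and 6 toward clone 2 (30%, against 8.37%). COL4A1, a chain of basement membrane collagen, read 75.1 and 57.6 FPKM in clone 1, 33.9 and 25.6 in clone 2 and 31.7 and 34 in wild type (1.13 ± 0.03, limma adjusted p = 0.00145). Its partner chain COL4A2, named after its values were seen, went the opposite way, with 47.1 and 39.7 FPKM in clone 1, 70 and 59.9 in clone 2 and 18.7 and 20.2 in wild type (-0.57 ± 0.03, limma adjusted p = 0.00393). The chains of the epithelial adhesion laminin LAMA3 (-0.99 ± 0.09) and LAMB3 (-0.81 ± 0.05) were both higher in clone 2.

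Of 15 mesenchymal genes, 7 passed as higher in clone 2 (46.7%, against 8.37% of all genes) and 4 as higher in clone 1 (26.7%, against 10.1%). The median was -0.30. S100A4, a calcium-binding protein of motile cells, read 59.7 and 99.8 FPKM in clone 1, 190 and 295 in clone 2 and 218 and 304 in wild type. Clone 1 was the low line for S100A4 (-1.60 ± 0.04, limma adjusted p = 0.0012). ACTA2, smooth muscle actin, read 0.275 and 1.76 FPKM in clone 1 and 1.6 and 3.93 in clone 2, which overlapped across siRNAs. It was higher in clone 2 within each siRNA (-0.93 ± 0.10). The call for ACTA2 was lost in the fit to 6 libraries and without the block (limma adjusted p = 0.0519 and 0.671). The siRNA effect on ACTA2 was 1.11 in clone 1, 0.92 in clone 2 and 0.18 in wild type, whereas the 6-library fit assumes 1 common effect. The repressor gene SNAI2 read 8.66 and 9.87 FPKM in clone 1 and 3.39 and 5.48 in clone 2, and was higher in clone 1 (0.94 ± 0.11, limma adjusted p = 0.012). ACTA2 is also the leading gene of the fibroblast list, whose sums were 0.422 to 1.96 FPKM in clone 1 and 1.93 to 4.41 in clone 2, with 9 of its 11 members below 0.1 FPKM in all 4 clone libraries and with the collagen genes COL1A1 and COL1A2 among those not reaching the filter.

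Epithelial junction genes differed in both directions. Of 21 claudin and tight junction genes, 3 passed toward clone 1 (14.3%) and 1 toward clone 2 (4.76%), against 10.1% and 8.37% of all genes, and beside CLDN16 the pore-forming CLDN2 was higher in clone 1 (0.30 ± 0.04). Of 21 cadherin, catenin and desmosome genes, 6 passed toward clone 1 (28.6%) and 8 toward clone 2 (38.1%). DSG3, a desmosomal cadherin of stratified epithelia, read 10.3 and 10.1 FPKM in clone 1, 32.5 and 35 in clone 2 and 3.33 and 5.95 in wild type. Both clones were above wild type for DSG3 and clone 2 above clone 1 (-1.64 ± 0.05, limma adjusted p = 0.00145, and 0.0202 without the block). Of 22 keratin and epithelial identity genes, 6 passed toward clone 1 (27.3%) and 3 toward clone 2 (13.6%). Their median was 0.03, the same as over all genes. OVOL1, an epithelial transcription factor, was higher in clone 1 with 5.98 and 4.09 FPKM against 2.29 and 1.7 (1.00 ± 0.08). The 3 higher in clone 2 were KRT18 (-0.40 ± 0.03), KRT19 (-0.30 ± 0.05) and ST14 (-0.23 ± 0.04).

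Tubule transporters and kidney transcription factors set the clones apart by a few genes. Of 19 tubule transporters tested, 5 passed toward clone 1 (26.3%) and 4 toward clone 2 (21.1%), against 10.1% and 8.37% of all genes. The list's median was 0.03, the same as over all genes. AQP3, a basolateral water and glycerol channel of the collecting duct, read 14.6 and 18.6 FPKM in clone 1, 6.76 and 8.74 in clone 2 and 30.9 and 63.1 in wild type. The membrane carbonic anhydrase gene CA4 read 5.09 and 6.2 FPKM in clone 1 and 2.05 and 2.9 in clone 2. Both were higher in clone 1, by 1.01 ± 0.04 and 0.94 ± 0.07 (limma adjusted p = 0.00232 and 0.00567). CA12 (-0.75 ± 0.09) and SCNN1A, the alpha subunit of the epithelial sodium channel (-0.58 ± 0.06), were higher in clone 2. Of 17 kidney transcription factors, 5 passed toward clone 1 (29.4%), among them PAX2 (0.27 ± 0.05). Toward clone 2, 2 passed (11.8%), IRX1 and GATA3. GATA3, a factor of the distal nephron and collecting duct, read 0.911 and 0.88 FPKM in clone 1, 2.69 and 2.68 in clone 2 and 0.975 and 1.18 in wild type (-0.96 ± 0.09, limma adjusted p = 0.00848). Of 24 HOX genes, 6 passed toward clone 1 (25%, against 10.1% of all genes) and 2 toward clone 2 (8.33%, against 8.37%). The largest of these differences were in HOXB6 (-0.84 ± 0.10) and HOXB13 (0.64 ± 0.06).

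Among 11 imprinted genes tested, which are expressed from a single parental allele, 5 passed toward clone 1 and 1 toward clone 2. The shares were 45.5% and 9.09%, against 10.1% and 8.37% of all genes. H19, a maternally expressed noncoding RNA, read 8.79 and 9.42 FPKM in clone 1, 3.05 and 3.65 in clone 2 and 14 and 21.5 in wild type. PEG10, a paternally expressed retrotransposon-derived gene, read 26.2 and 19.7 FPKM in clone 1, 7.55 and 4.42 in clone 2 and 11.2 and 9.75 in wild type. SNRPN, a paternally expressed splicing factor gene, read 185 and 196 FPKM in clone 1, 484 and 618 in clone 2 and 180 and 191 in wild type. The clones were without overlap in all 3 genes, by 1.22 ± 0.06, 1.80 ± 0.08 and -1.51 ± 0.07 (limma adjusted p = 0.00276, 0.00228 and 0.00269), and clone 2 was the line away from wild type for SNRPN. SNRPN shares its transcript with SNURF, so these values cannot be assigned to 1 of them.

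Growth factor signalling genes differed in both directions. BAMBI, a decoy receptor for TGF-beta and BMP ligands, read 0.109 and 0.225 FPKM in clone 1, 3.47 and 5.84 in clone 2 and 0.172 and 0.183 in wild type (-2.25 ± 0.14, limma adjusted p = 0.00443). BAMBI passed the filter only through clone 2. The BMP target ID3 read 134 and 118 FPKM in clone 1, 71.8 and 69.7 in clone 2 and 108 and 130 in wild type (0.82 ± 0.05, limma adjusted p = 0.00364). Clone 2 was thus the line apart in both genes, as in FST. The ligand gene BMP4 (0.77 ± 0.04) and the coreceptor gene TGFBR3 (0.65 ± 0.06) were higher in clone 1. Of 29 TGF-beta and BMP genes, 9 passed toward clone 1 (31%, against 10.1% of all genes) and 4 toward clone 2 (13.8%, against 8.37%).

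Of 26 genes of the EGF family, its receptors and ERK feedback, 10 passed toward clone 1 (38.5%, against 10.1% of all genes). Toward clone 2, 2 passed (7.69%, against 8.37%), and the median was 0.16. DUSP5, a nuclear ERK phosphatase, read 36.3 and 23.8 FPKM in clone 1, 14.4 and 13 in clone 2 and 34 and 34.6 in wild type. DUSP4, a phosphatase of the same family, ran opposite with 3.55 and 5.88 FPKM in clone 1 and 6.86 and 10.3 in clone 2. DUSP5 did not overlap between the clones (1.05 ± 0.11, limma adjusted p = 0.0112), nor did DUSP4 (-0.75 ± 0.05, limma adjusted p = 0.00551). DUSP6 (0.64 ± 0.05), the ligand gene TGFA (0.64 ± 0.05) and the ERK-induced factor ETV4 (0.68 ± 0.06) were higher in clone 1. Among 18 WNT genes, 3 passed toward clone 1 (16.7%, against 10.1% of all genes) and 4 toward clone 2 (22.2%, against 8.37%). The ligand gene WNT5A (0.98 ± 0.11) led toward clone 1. RNF43, a ubiquitin ligase that removes WNT receptors (-0.90 ± 0.07), led toward clone 2. Of 11 Notch genes, 1 passed toward clone 1 (9.09%, against 10.1% of all genes) and 1 toward clone 2 (9.09%, against 8.37%). The latter was HES4 (-1.06 ± 0.12), which passed the filter only through clone 2. The former was NOTCH1 (0.31 ± 0.05), which did not pass in the fit to 6 libraries (limma adjusted p = 0.0979). Of 24 YAP and TAZ targets, 5 passed toward clone 1 (20.8%) and 3 toward clone 2 (12.5%), against 10.1% and 8.37% of all genes. In the fit to 6 libraries, 3 and 1 passed. ANKRD1 had the largest difference (-1.38 ± 0.21), with 2.48 and 0.0118 FPKM in clone 1 and 11.1 and 0.977 in clone 2. The clones thus overlapped across siRNAs. Its call was lost in the 6-library fit and without the block (limma adjusted p = 0.142 and 0.772).

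Of 32 integrated stress response genes, 12 passed toward clone 1 (37.5%, against 10.1% of all genes) and 2 toward clone 2 (6.25%, against 8.37%). The median was 0.19. PSAT1, an enzyme of serine synthesis, read 200 and 228 FPKM in clone 1, 142 and 134 in clone 2 and 222 and 281 in wild type (0.63 ± 0.07, limma adjusted p = 0.0128). Of 29 ER chaperone and unfolded protein genes, 8 passed toward clone 1 (27.6%) and 3 toward clone 2 (10.3%), against 10.1% and 8.37% of all genes. But the median of 0.04 was close to that of all genes, 0.03, and in the fit to 6 libraries 3 passed in each direction. HSPA5, the ER chaperone BiP, read 540 and 198 FPKM in clone 1, 361 and 150 in clone 2 and 723 and 222 in wild type, an siRNA effect larger than the clone difference of 0.49 ± 0.05. The clones therefore overlapped for HSPA5 across siRNAs, and its call was lost without the block (limma adjusted p = 0.0119 and 0.887).

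Of 73 cytosolic ribosomal protein genes, 14 passed toward clone 1 (19.2%, against 10.1% of all genes) and 0 toward clone 2. The median was 0.09, against 0.03 over all genes. In the fit to 6 libraries, 4 of the 73 passed, all toward clone 1. RPS6 stood out among them with 2031 and 1917 FPKM in clone 1, 1245 and 1104 in clone 2 and 1092 and 1050 in wild type (0.75 ± 0.04, limma adjusted p = 0.00322). Ribosomal protein genes have many processed copies that can share fragments, so these values are uncertain. Of 34 respiratory chain subunits, 7 passed toward clone 1 (20.6%, against 10.1% of all genes) and 0 toward clone 2 (median 0.08). Of 34 lysosomal genes, 9 passed toward clone 2 (26.5%, against 8.37% of all genes). Toward clone 1, only the protease gene CTSD passed (0.34 ± 0.03), or 2.94%, against 10.1%. LIPA, the lysosomal lipase, read 17.1 and 19.3 FPKM in clone 1 and 25.9 and 30.2 in clone 2 (-0.59 ± 0.04, limma adjusted p = 0.00477). ENO2, a glycolytic enolase, read 9.45 and 10.3 FPKM in clone 1, 28.7 and 35.1 in clone 2 and 9.16 and 12.1 in wild type (-1.59 ± 0.06, limma adjusted p = 0.00161). It was the largest difference among 31 glycolysis and hypoxia genes. Of these, 2 passed toward clone 1 (6.45%, against 10.1% of all genes) and 4 toward clone 2 (12.9%, against 8.37%). The list's median was -0.03, against 0.03 over all genes. MT2A, a zinc-binding metallothionein, read 92.3 and 92.1 FPKM in clone 1, 419 and 432 in clone 2 and 190 and 146 in wild type, and metallothioneins are near-identical copies that can share fragments. Among 28 NRF2 target and glutathione genes, 8 passed toward clone 1 (28.6%, against 10.1% of all genes), led by the efflux pump gene ABCC2 (0.86 ± 0.06). Toward clone 2, 4 passed (14.3%, against 8.37%), led by the quinone reductase gene NQO1 (-0.56 ± 0.09).

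**Figure D4:**
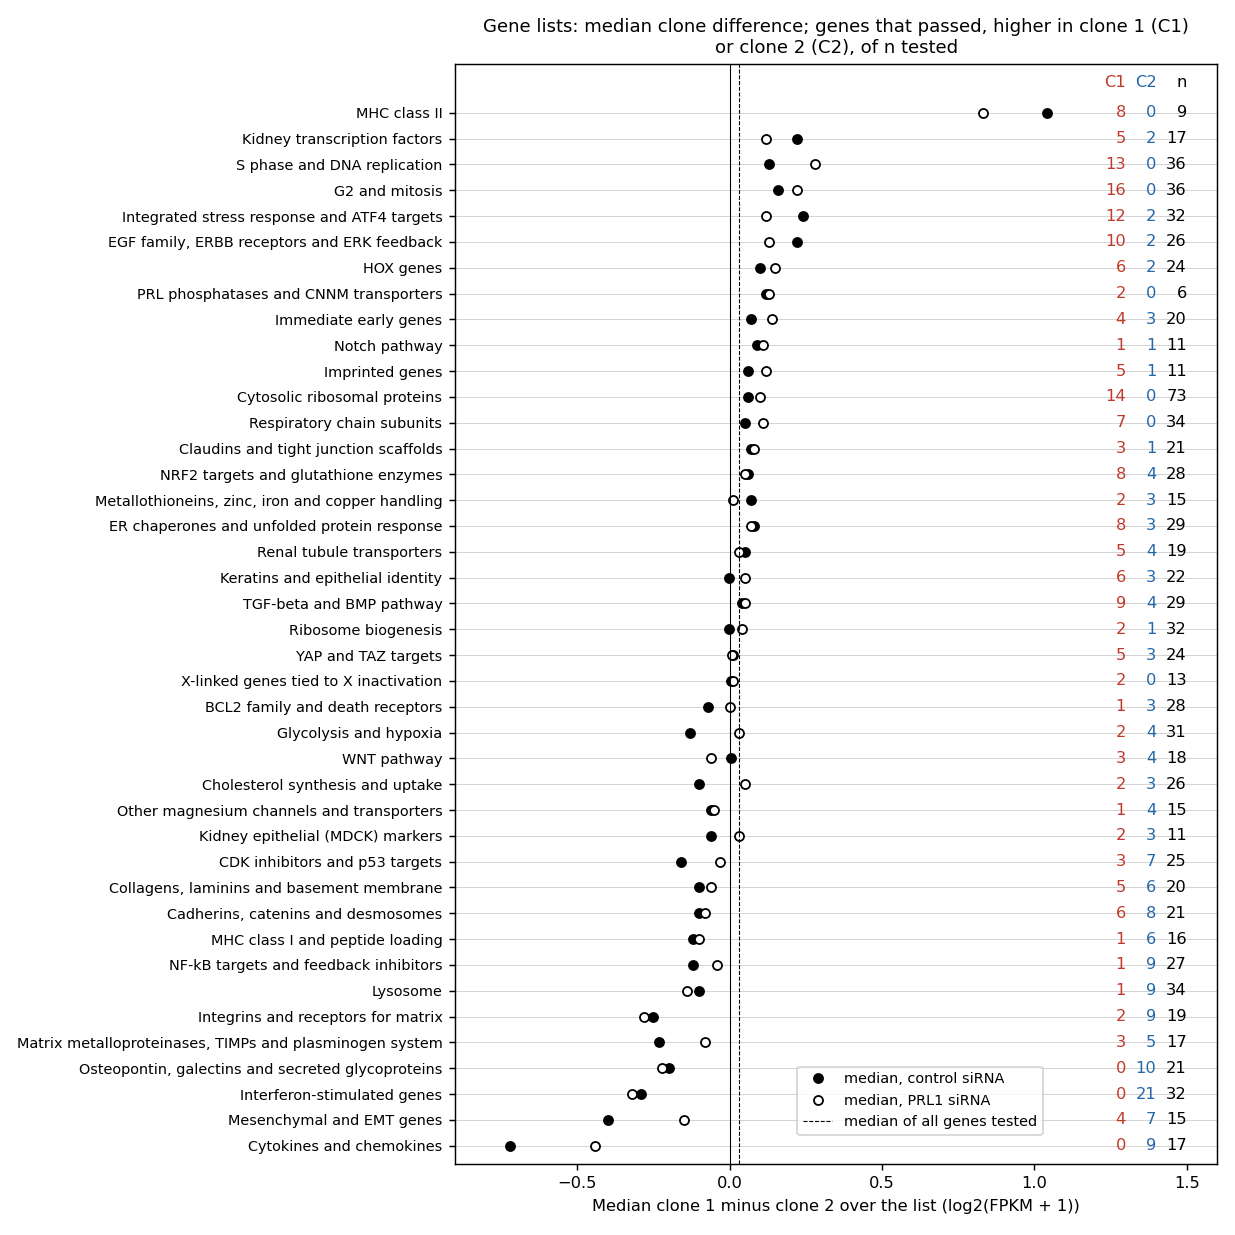
Median of clone 1 minus clone 2 in log2(FPKM + 1) over the tested members of each gene list with at least 5 of them, filled for control siRNA and open for PRL1 siRNA, with the members that passed in each direction and the number tested at the right; the dashed line marks the median of all genes tested, 0.03. MHC class II lies farthest to the right (median 0.95, 8 of 9 passed) and the cytokine list farthest to the left (median -0.70, 9 of 17 passed).

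In some genes the difference between the clones depended on the siRNA. With 1 library per clone and siRNA this is a description without a test. LIN7C, a polarity scaffold gene, read 6.27 FPKM in clone 2 with control siRNA and 0.168 to 0.276 in the other 3 clone libraries, so 1 library decides its difference. C4H10orf99 read 1.22 and 8.55 FPKM in clone 1, 0.173 and 0.59 in clone 2 and 4.78 and 19.1 in wild type. As with ACKR3, clone 2 was low under both siRNAs and the gap was wider with PRL1 siRNA. The keratin gene KRT14 read 2.25 and 3.11 FPKM in clone 1 and 3.06 and 7.8 in clone 2, and the interferon gene IFNK read 4.52 and 6.84 against 5.51 and 15.8. In those 2 genes clone 2 was higher mainly with PRL1 siRNA. TBX2, a T-box repressor, was higher in clone 1 under both siRNAs, with 5.01 and 1.96 FPKM against 1.1 and 0.761 (1.13 ± 0.20, limma adjusted p = 0.0307).

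Wild type lay nearer to clone 1 for most of the larger differences. Of the 184 genes (1.52%) that were called and at least 2-fold apart in the mean, 65 higher in clone 1 and 119 higher in clone 2, wild type was nearer to clone 1 in 129 (70.1%) and to clone 2 in 55. Over all genes tested it was nearer to clone 1 in 54.5%. Wild type lay between the clones in 107 of the 184, above both in 32 and below both in 45. The median distance from wild type was 0.13 for clone 1 and 0.14 for clone 2 over all genes, and both distances use the same wild-type libraries.

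Whole stretches of neighbouring genes did not separate the clones at the size examined. Tested genes were placed in the order of the RefSeq table for 11833 symbols on 39 chromosomes, and the median difference was taken in windows of 41 consecutive genes. Of 10273 windows, 0 reached 0.2 in either direction, with medians from -0.09 to 0.17, and the siRNA effect gave medians from -0.18 to 0.14. Chromosome medians ran from -0.01 to 0.09. The genes at the ends of the highest window were DUS3L and NFIC, and of the lowest LDHB and PKP2. Windows of 21 genes reached 0.2 in 9 cases.

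**Figure D5:**
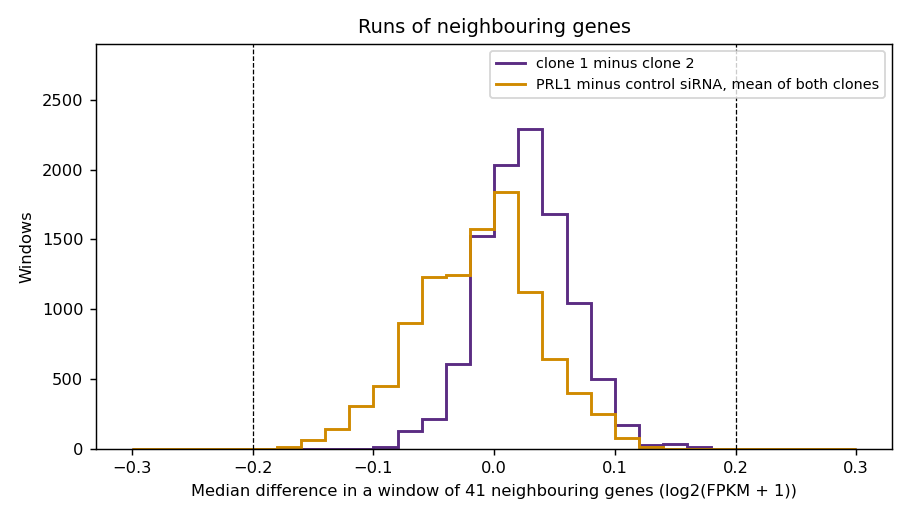
Number of windows of 41 neighbouring genes by their median difference in log2(FPKM + 1), for clone 1 minus clone 2 and for PRL1 minus control siRNA averaged over the clones; dashed lines mark 0.2 in either direction. Both distributions stay inside the dashed lines, the clone difference between -0.09 and 0.17 and the siRNA effect between -0.18 and 0.14.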

How the data were processed

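The deposited values are FPKM per gene symbol, 1 value per library, computed by the authors. Per the submitters' processing notes, the tools were HISAT2 2.1.0, Cufflinks 2.2.1 and Cuffdiff. Genome build, annotation and strand setting: not given in the sources used here. For that reason no coordinate or sequence is printed, and fragments of overlapping or antisense genes may have been shared. RefSeq names of assembly UU_Cfam_GSD_1.0 were used for names and gene order only (11853 of 12105 tested genes matched). Libraries were made with a stranded mRNA kit, per the labels' protocols. No 2 libraries held identical values.

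The clone difference was fitted on log2(FPKM + 1) by limma 3.58.1 (R 4.3.3), with terms for siRNA (the block) and clone, moderated variances with an intensity trend and Benjamini-Hochberg adjustment over all 12105 genes at 0.05. The residual has 1 degree of freedom, the difference between the clone differences under the 2 siRNAs, and the prior has 3.35. The pairing is by labelled siRNA treatment. An exact permutation test of 2 against 2 libraries cannot reach 0.05 and was not used. The fit was tested on simulated data. Fold changes of low genes are understated by the pseudocount of 1. Tested genes below 1 FPKM in both libraries of 1 clone passed the filter only through the other clone, which limits what their p-values and list counts show. Among them were IRX1, ZNF532, DZIP1, CXCL8, CD40, BAMBI, HES4 and GATA3. Relative depth was taken from values below 0.1 FPKM, as the most common ratio between libraries.

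Genes are named by rule: PRL and CNNM genes; the 15 largest called differences per direction with at least 5 FPKM in both libraries of the higher clone; the 6 largest siRNA-dependent differences per direction; up to 5 members per gene list (44 lists), called members first; and genes near 0 in 1 clone. Loci without a gene name entered the tests only. Other genes given in a paragraph to complete a family lie outside this rule and were chosen after their values were seen. The comparison and the lists were chosen with earlier results of these data known. Lists are described by counts and medians, with no set test. Alternatives were the fit without the block, a fit to all 6 libraries, each library left out, another pseudocount, other filters, no trend, robust moderation, size factors and other window sizes. A few genes that the rule names are not reported here.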

Additional observations from a re-analysis of the deposited data

Results flagged for a closer look

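In 4 genes the clone difference had opposite signs under the 2 siRNAs, each seen in 1 library per clone and siRNA, and the change of sign was not tested. PLAT, tissue plasminogen activator, read 1.54 and 5.09 FPKM in clones 1 and 2 with control siRNA and 19.1 and 18.4 with PRL1 siRNA, a change of the clone difference by 1.32 in log2(FPKM + 1). CCL20, a chemokine for dendritic cells and lymphocytes, read 14.5 and 27.2 FPKM with control siRNA and 54 and 41.3 with PRL1 siRNA, a change of 1.24. The keratin gene KRT16 read 6.61 and 2.35 FPKM with control siRNA and 5.15 and 5.85 with PRL1 siRNA, a change of -1.34. RAP1GAP2, which switches off the GTPase Rap1, read 12.2 and 9.93 FPKM with control siRNA and 12.3 and 17.3 with PRL1 siRNA, a change of -0.74. These genes were picked out of 12105 for the size of that change.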

How the results depend on the processing

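The count of 2237 genes (1224 higher in clone 1, 1013 higher in clone 2) depended on the model. With no replicate block, that is without pairing by siRNA, it was 42 (12 and 30; smallest limma adjusted p = 0.0165, and 1206 genes at an unadjusted p under 0.05). Without the intensity trend it was 1209 (581 and 628). With no filter beyond a mean above 0, limma called 0 of 26841 genes (0 and 0), with 5342 at an unadjusted p under 0.05 and a smallest adjusted p of 0.182. Leaving out each library in turn from the fit to all 6, the count ranged from 284 to 2295 (119 to 1274 and 165 to 1026). It fell to 284 and 299 without the control or PRL1 siRNA library of clone 1 and to 476 and 413 without those of clone 2, where the lone library is assumed to vary like the others, and stayed above 2237 without either wild-type library. A pseudocount of 0.1, a mean of at least 5 FPKM, robust moderation, size factors and the 6-library fit kept the count within 1.5 times. Genes at least 2-fold apart under both siRNAs numbered 84 and 165 with a pseudocount of 0.1 and 28 and 52 with a mean of at least 5 FPKM, against 52 and 100. Windows of 21 genes past 0.2 numbered 9, and those of 81 genes 0.

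Of 210 named called genes, 22 held without the block, 187 in the 6-library fit, 151 without the trend and 0 without the filter. Signs reversed in 7 genes when 1 library was left out: PTP4A1 (0.01, range -0.19 to 0.01), ARL15 (-0.0025, to 0.06), CCL20 (0.21 and 0.24, from -0.72), KRT16 (-0.22, to 1.25), RAP1GAP2 (0.15 and 0.22, from -0.41), CCL5 (0.12, from -1.70) and NDUFS4 (-0.03, to 0.58). CCL5 and NDUFS4 had been called. The cause of these changes was not tested. Depth is known only in relative terms, so it gives no error for genes of low FPKM.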

Other observations

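Among genes called and at least 2-fold apart, 14 pairs were direct neighbours in the reference gene order and moved in the same direction, and 0 pairs moved in opposite directions. This description was added after the data were seen, over 11794 neighbouring pairs of tested genes. Of the placed genes, 179 were called and at least 2-fold apart, and the number of pairs to expect from that was not computed. MT1E, SAA1 and SNRPN each belong to more than 1 pair, so the pairs are not independent. The metalloreductase genes STEAP1 and STEAP2 formed 1 such pair. STEAP1 read 10.5 and 17 FPKM in clone 1 with control and PRL1 siRNA, 42.7 and 49.6 in clone 2 and 55.4 and 70 in wild type. STEAP2 read 8.55 and 12.9 FPKM in clone 1, 33.2 and 42.6 in clone 2 and 44.2 and 49.3 in wild type. In both, clone 1 was the low line (-1.71 and -1.74). The other pairs of named genes were MIOX with ADM2, DLA-DQA1 with DLA-DQB1, MT1E with MT2A, SCARA3 with CLU, and the overlapping SNRPN and SNURF. In the remaining pairs 1 member was an unnamed locus, next to CXCL8, LGALS1, SAA1, ACP6, SEMA7A, MT1E or SNRPN.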
